A study of Mus musculus with 8 samples.

Results

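The libraries described here are the 4 wild-type (WT) libraries, numbered 1, 3, 4 and 5, of a series of 8, chosen by their genotype label alone. Each holds RNA pulled down with the ribosomes of Müller cells from mouse retina at postnatal day 14 of oxygen-induced retinopathy (OIR). The labels name retina as the tissue, Muller cells as the cell type, WT as the genotype and OIR as the treatment. The remaining 4 libraries, from a Müller cell-specific Nrf2 conditional knockout of the same age and treatment, were not compared with them. The title of the series names RiboTag, in which cells that express Cre carry a tag on the ribosomal protein Rpl22. The Cre driver, the sex, the strain, and whether a library came from 1 animal or a pool are not given in the sources used here. OIR is made by raising pups in excess oxygen, which costs them retinal capillaries; on return to room air the poorly perfused retina becomes hypoxic and grows abnormal vessels. All 8 samples came from OIR retina, so no level below is a response relative to room air. No RNA of whole retina was measured beside the pull-downs, so enrichment over the input could not be computed.

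Müller cells span the whole thickness of the retina and are its main glia. They take up glutamate from synapses and turn it into glutamine, recycle retinoid for cones, buffer potassium and water at their endfeet on vessels, and feed photoreceptors with the products of glycolysis. In an ischemic retina they are known as a main source of vascular endothelial growth factor (VEGF), which the hypoxia-inducible factors (HIF) switch on when oxygen is low.

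Levels are FPKM, that is, fragments scaled to transcript length and to the fragments of the library, as the authors deposited them for 12339 genes. FPKM is a level per length, so genes are set side by side here, although differences between libraries still moved with exonic length, as given below. Over all genes the median of the mean level was 15.5 FPKM, and 739 genes (5.99%) had a mean above 100 FPKM. Summed FPKM per library ran from 410581 to 443749. Pairs of WT libraries correlated at between 0.959 and 0.980 across the 12339 genes (Pearson, log2 values; genes are not independent replicates). The highest value was that of WT 1 with WT 3, and the next, 0.972, that of WT 4 with WT 5. In 28.6% of genes WT 1 and WT 3 both lay above WT 4 and WT 5, and in 26.1% both lay below. This split moved with transcript length. Of the protein-coding genes in the shortest of 4 equal groups by exonic length (median 2100 bases) 8.30% were higher in WT 1 and WT 3, against 52.3% of the longest group (median 9566 bases). Of the same shortest group 48.6% were higher in WT 4 and WT 5. Transcripts of the cytosolic ribosomal proteins (median 1781 bases) were higher in WT 4 and WT 5 in 76 of 81 genes and in WT 1 and WT 3 in none (0). The part of length in their shift was not tested. Whether RNA quality or library preparation differed between these libraries was not tested.

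**Figure D1:**
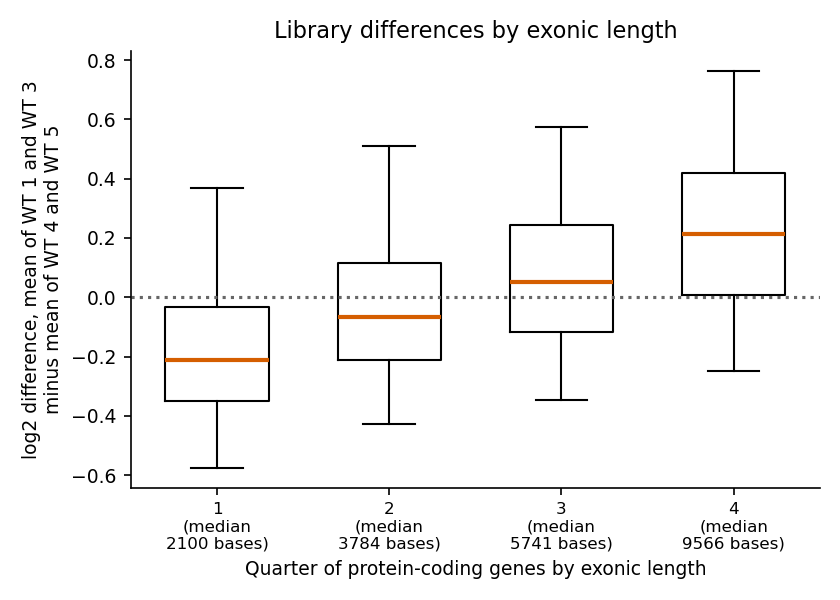
Difference between the mean of WT 1 and WT 3 and the mean of WT 4 and WT 5 (log2 FPKM, y axis) for protein-coding genes in 4 equal groups by exonic length (x axis); boxes span the middle 50% of genes, orange lines the medians, whiskers the 5 and 95 percentiles. The median goes from -0.21 in the shortest group to 0.21 in the longest.

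The most abundant RNA was that of a Müller cell enzyme. Glul, glutamine synthetase (chromosome 1, 153899944 to 153909723, build GRCm38), was at 3317 FPKM in WT 1, 3489 in WT 3, 5101 in WT 4 and 3595 in WT 5, a mean of 3875 ± 825 (SD, n = 4). WT 4 stood above the others, and in all 4 libraries Glul exceeded the gene ranked after it. That gene was Apoe, the lipid carrier apolipoprotein E, at 2042, 2283, 3620 and 2681 FPKM in WT 1, 3, 4 and 5. Sparc, a secreted matrix protein (1874 ± 461), Mgarp, a mitochondrial protein also known as Hummr (1832 ± 448), Ckb, brain creatine kinase (1808 ± 251), and Bsg, basigin, the partner of lactate transporters (1598 ± 367; SD, n = 4 each), followed. Between Apoe and Sparc ranked a ribosomal RNA gene with a clone name, CT010467.1, at 2452 ± 509 FPKM, which is named here after its values were seen.

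Of the 25 most abundant genes, 7 were in the list of Müller glia genes, 6 in the list of HIF targets and 1 in the rod list. Besides Glul and Apoe, the Müller genes were Rlbp1, Vim, Dbi, Crym and Car2. The HIF targets were Aldoa, Gapdh, Eno1, Ldha, Tpi1 and Mif, and Pkm, the pyruvate kinase gene (1186 ± 127), stood among them. The rest were Eef1a1 (914 ± 119), an elongation factor, H3f3b (917 ± 193), a histone, Ptms (893 ± 116), parathymosin, Hsp90aa1 (798 ± 28.9), a chaperone, and Malat1, a nuclear noncoding RNA. Malat1 was at 1000.3, 1559, 727 and 298 FPKM in WT 1, 3, 4 and 5, the widest spread of the 25 relative to its mean (coefficient of variation 58.9%). The order within the 25 was loose. In 3 of the 24 pairs of neighbours the higher-ranked gene was above the next in all 4 libraries, namely Glul over Apoe, CT010467.1 over Sparc, and Dbi over Crym. The 100 most abundant genes held 17.1 ± 1.09% of the summed FPKM (SD, n = 4), and the 1000 most abundant held 47.6 ± 1.84%.

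**Figure D2:**
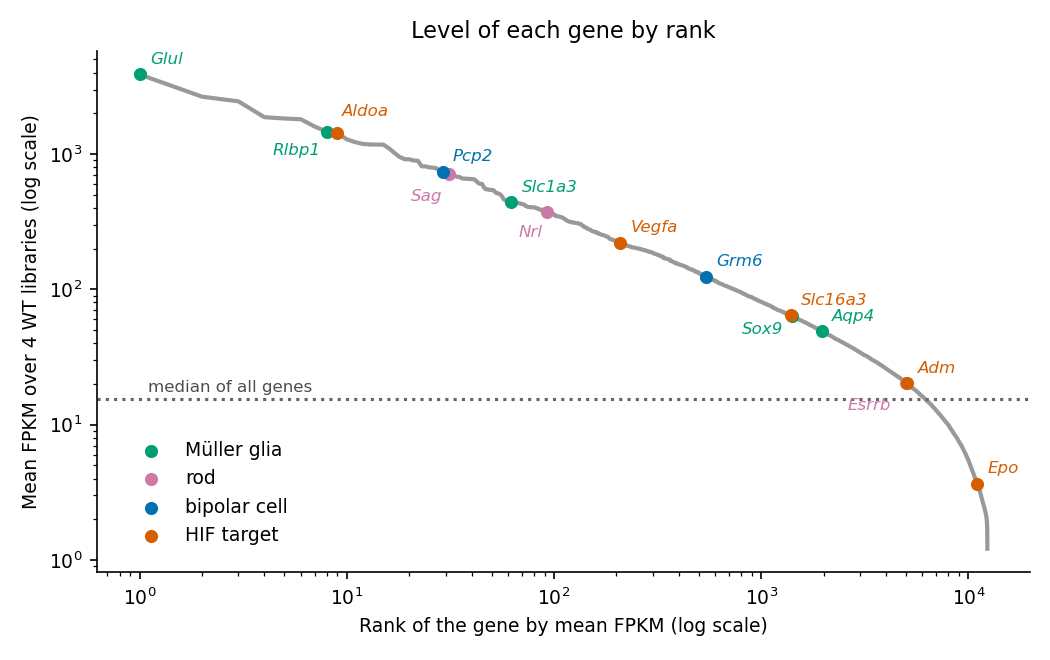
Mean FPKM over the 4 WT libraries (y axis, log scale) against the rank of the gene (x axis, log scale), with examples from 4 gene lists in colour; genes under 0.5 FPKM are not drawn. Glul ranks first and Vegfa 208, and the dotted line is the median of all genes, 15.5 FPKM.

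Of the 44 Müller glia genes listed, 43 had a value and Rgr did not. They had a median of 118 FPKM (SD of the library medians 23.7, n = 4). Of the 43, 42 lay above the median gene and 23 above 100 FPKM, a level that 5.99% of all genes passed. Among the genes of glutamate handling, Slc1a3, the glial glutamate carrier GLAST (chromosome 15, 8634124 to 8710764), was at 358, 465, 522 and 424 FPKM in WT 1, 3, 4 and 5. It was lowest in WT 1 and highest in WT 4, as was Slc6a11, a GABA carrier (167 ± 21.9). Slc38a3, a glutamine carrier, was at 204 ± 32.3, and Glud1, glutamate dehydrogenase, at 92.4 ± 13.6. Slc1a2, the glutamate carrier better known from astrocytes and neurons, was lower, at 35.9 ± 4.48, and each of its libraries lay below each library of Slc1a3.

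Genes of retinoid handling were led by Rlbp1, the retinaldehyde-binding protein CRALBP (chromosome 7, 79374870 to 79387048), at 1096, 1472, 1795 and 1485 FPKM in WT 1, 3, 4 and 5. WT 1 was the lowest and WT 4 the highest. The retinol dehydrogenase Rdh10 was at 130.0 ± 28.9 and the reductase Dhrs3 at 34.7 ± 4.23.

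Genes of the endfoot were of intermediate level, with a median of 51.8 FPKM over 5 genes. Aqp4, the water channel, was at 40.9, 47.1, 62.9 and 45.1 FPKM in WT 1, 3, 4 and 5, with WT 4 above the rest. Kcnj10, the potassium channel Kir4.1, was at 42.9, 53.0, 63.1 and 48.2. Their anchors Dag1, dystroglycan (62.8 ± 6.78), and Dmd, dystrophin (61.3 ± 13.5), lay in the same range. The means of these 4 genes ran from 49.0 to 62.8 FPKM, which is within the range of the 4 libraries of Aqp4. Of the acid-base genes, the carbonic anhydrases Car2 (811 ± 124) and Car14 (305 ± 79.4) were abundant, and the bicarbonate carrier Slc4a4 (12.5 ± 0.788) lay below the median gene.

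Carriers of lipid and surface or filament genes made up most of the other abundant Müller RNAs. Dbi, an acyl-CoA binding protein, was at 1101 ± 222 FPKM, and Clu, the secreted chaperone clusterin, at 692 ± 257. Clu stood at 1070 in WT 4 against 519 to 637 in the others. Abca8a, a lipid transporter, was at 127 ± 47.0. Fabp7, a fatty acid-binding protein, was at 30.4, 14.7, 13.8 and 39.2 FPKM in WT 1, 3, 4 and 5, so that its lowest value was in WT 4, where most Müller genes were highest. Vim, the filament protein vimentin, was at 739, 1041, 1744 and 1171 FPKM, and Crym, a thyroid hormone-binding crystallin (1017 ± 271), Mfge8, a bridging protein for phagocytosis (718 ± 123), and Dkk3, a secreted Dickkopf protein (704 ± 147), were of like abundance. Cd9, a tetraspanin (439 ± 109), Ptn, pleiotrophin (398 ± 59.3), and Gpr37, a receptor (215 ± 37.7), came next, and Cd44, a hyaluronan receptor, was at 17.1 ± 3.12.

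All 12 transcription factor genes of the Müller list had a value above the median gene, with a median of 71.3 FPKM. Rax, a homeobox factor of the early retina, was the highest at 157 ± 17.7. Lhx2 (107 ± 15.8), which keeps Müller cells in their resting state, Sox2 (78.7 ± 13.02), Sox9 (64.0 ± 14.3), Sox8 (59.2 ± 9.79) and the Notch target Hes1 (56.5 ± 8.61) followed. Of the nuclear factor I genes, Nfix was at 92.8 ± 6.11, Nfia at 53.1 ± 2.05 and Nfib at 44.2 ± 4.30. Id1 (118 ± 23.6) and Id3 (87.8 ± 9.53) are inhibitors of other factors. Hes5, a further Notch target, was the lowest at 25.2 ± 2.75.

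The libraries were not of Müller RNA alone. Rod genes had a median of 304 FPKM (SD of the library medians 74.7), higher than the 118 of the Müller list, and 17 of 21 were above 100 FPKM. The medians depend on which genes a list holds. Sums depend on the number of genes as well. The 43 Müller genes together reached 4.28 ± 0.755% of all FPKM and the 21 rod genes 1.72 ± 0.367% (SD, n = 4). Sag, rod arrestin, was at 855, 668, 565 and 784 FPKM in WT 1, 3, 4 and 5, the reverse of the Müller pattern, with WT 1 highest and WT 4 lowest. Gnb1, a transducin subunit, was at 787 ± 149 and Pdc, phosducin, at 751 ± 240.4.

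All 20 listed bipolar cell genes had a value, with a median of 66.0 FPKM (SD of the library medians 8.01) and 9 above 100 FPKM. Pcp2, a modulator of G protein signalling in rod bipolar cells, was at 723, 628, 725 and 893 FPKM in WT 1, 3, 4 and 5. Otx2, a homeobox factor that also acts in photoreceptors, was at 251 ± 58.8. Isl1 (186 ± 29.5) is shared with amacrine and ganglion cells.

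The lists of the other neurons had medians below that of all genes, 15.5 FPKM. Cone genes had a median of 13.4 FPKM over 11 of 13 with a value, amacrine genes 11.5 over 11 of 15, and ganglion cell genes 9.34 over 11 of 15. Among cone genes Gnb3 stood apart at 403 ± 46.4, and ON bipolar cells are known to express it as well. The next were Gngt2 (32.0 ± 5.49), Gnat2 (23.5 ± 2.36) and Opn1sw, the short-wave opsin (19.4 ± 4.604). Among amacrine genes Pax6 (175 ± 9.90), which Müller cells are known to express too, was the highest. Meis2 was at 40.4 ± 5.61 and the glycine carrier Slc6a9 at 16.9 ± 3.11. Of the ganglion cell genes, Tubb3 (30.3 ± 4.11) and the neurofilament Nefl (28.5 ± 3.999) led, with Thy1 at 18.3 ± 4.31 and Nefm at 16.8 ± 2.46. Of the 6 horizontal cell genes only Prox1, which bipolar and amacrine cells share, had a value (80.3 ± 12.7).

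Genes of vessels, immune cells and other tissues mostly had no value here. The lowest mean over the 8 libraries in the table was 2.001 FPKM, and a gene without a row was not analysed here. A gene with a WT mean below this, such as Hbb-bs, has a row only through higher values in the knockout libraries. Of the endothelial genes 5 of 16 had a value. Kdr, the VEGF receptor that retinal glia and neurons also express, was at 171 ± 35.3, and Apln, the apelin ligand, at 44.7, 38.2, 75.1 and 33.5. Flt1 was at 32.2 ± 7.16 and Egfl7 at 20.02 ± 6.82, while Pecam1, Cdh5 and Cldn5 had none. Of the pericyte genes 5 of 12 had a value, led by Vtn (60.1 ± 16.2), Rgs5 (27.99 ± 2.25), Myl9 (16.6 ± 6.06) and the receptor Pdgfrb (6.95 ± 2.06). Of 17 microglia genes 1 had a value. Of 11 pigment epithelium genes Ttr (3.74 ± 1.78) and Rdh5 (3.54 ± 1.52) had one, of 5 red cell genes Hbb-bs (1.86 ± 1.16), and of 8 cell cycle genes Ccna2 (8.31 ± 2.49). Astrocyte genes had a median of 27.6 FPKM over 6 of 8. Gfap, which injured Müller cells also express, led them, followed by Agt (37.1 ± 8.77), Aldh1l1 (32.7 ± 12.03) and S100b (22.4 ± 4.74), and the astrocyte factor Pax2 had no value.

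**Figure D3:**
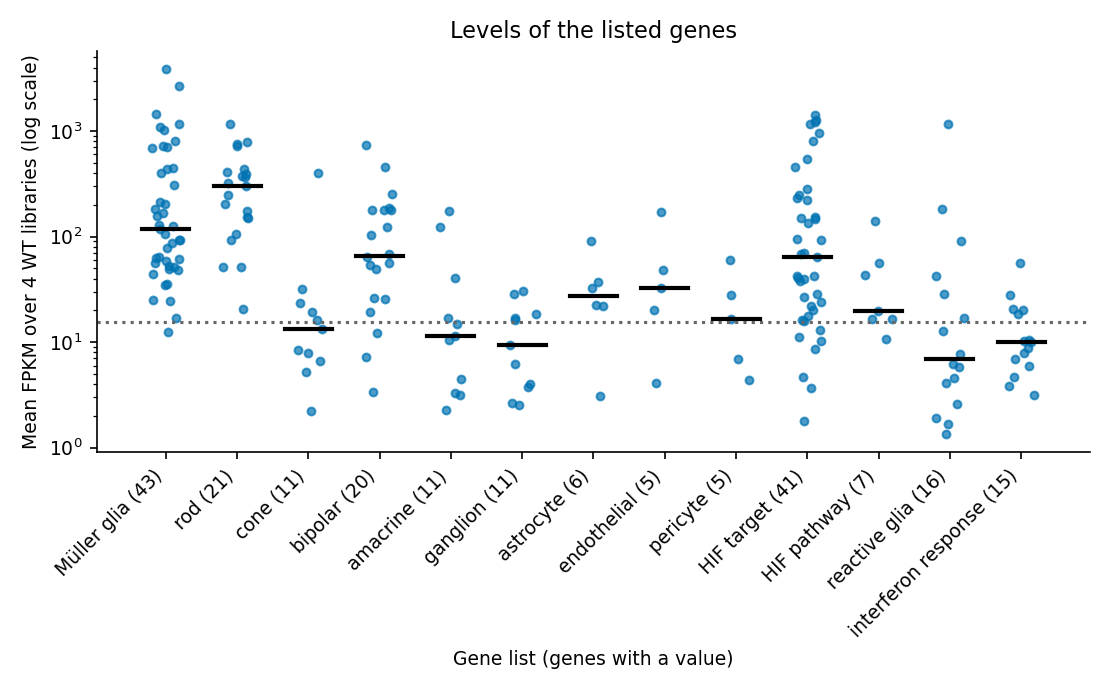
Mean FPKM over the 4 WT libraries (y axis, log scale) of each listed gene with a value, by list (x axis, number of genes in brackets); black bars are medians and the dotted line is the median of all genes. Rod, Müller, bipolar and HIF target genes lie mostly above the line, with medians of 304, 118, 66.0 and 64.5 FPKM.

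Müller and rod genes moved in opposite directions between the 4 libraries. WT 4 held the highest value of the 4 in 35 of 43 Müller genes and in 0 of 21 rod genes, where it was the highest in 27.6% of all genes. Over all genes WT 1, WT 3, WT 4 and WT 5 were the highest in 19.1, 27.4, 27.6 and 26% and the lowest in 22.7, 24, 28.7 and 24.6%. WT 1 was the highest in 17 of 21 rod genes (19.1% of all genes). WT 1 was the lowest in 33 of 43 Müller genes and in 0 of 21 rod genes, against 22.7% of all genes. The median deviation from a gene's mean over the libraries was -0.24 (log2) in WT 1 and 0.27 in WT 4 for Müller genes, and 0.30 and -0.30 for rod genes. Bipolar genes deviated by 0.14 and -0.26, and the 11 amacrine genes by 0.30 and -0.19, in the direction of rod genes. The 6 astrocyte (-0.27 and 0.38), 5 endothelial (-0.20 and 0.37) and 5 pericyte genes (-0.19 and 0.43) went the direction of Müller genes. Cone (0.07 and -0.03) and ganglion cell genes (0.13 and 0.08) deviated by less. The opposite movement was thus not confined to Müller and rod genes. After centring on genes of like exonic length, the deviations were -0.26 and 0.24 for Müller genes and 0.31 and -0.27 for rod genes. The ratio of the summed FPKM of the 43 Müller genes to that of the 21 rod genes was 1.61 in WT 1, 2.46 in WT 3, 4.13 in WT 4 and 2.38 in WT 5. The ratio of the list medians was 0.26 in WT 1, 0.44 in WT 3, 0.74 in WT 4 and 0.45 in WT 5. Both ratios were lowest in WT 1 and highest in WT 4, but which list is higher depends on the summary used. A larger share of Müller ribosomes in a pull-down and more of these RNAs per Müller cell cannot be told apart in bulk RNA, nor can fewer rods and less RNA per rod.

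**Figure D4:**
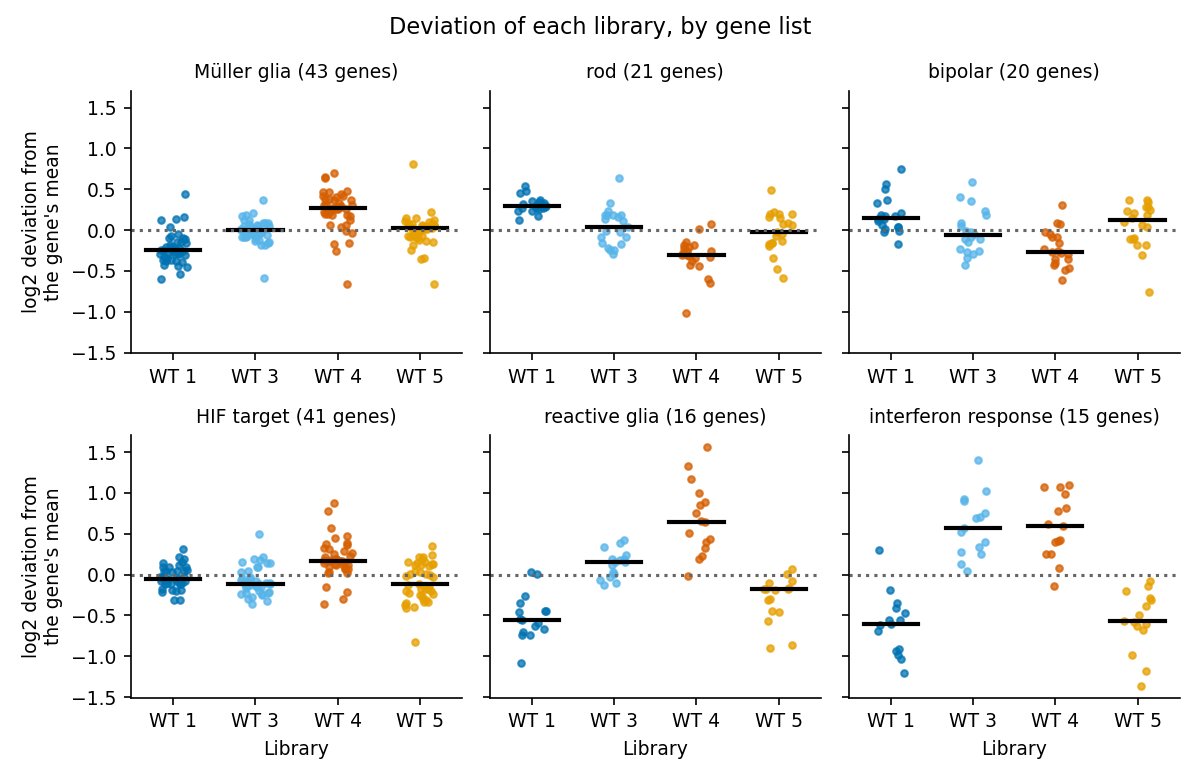
Deviation of each WT library (x axis) from the mean of the gene over the 4 libraries (y axis, log2 of FPKM + 0.5), for the genes with a value in 6 lists; points are genes and black bars medians. Müller genes are highest in WT 4 (median 0.27) and rod genes in WT 1 (0.30), and interferon genes are high in WT 3 and WT 4 (0.58 and 0.60).

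Of the 46 HIF targets listed, 41 had a value, with a median of 64.5 FPKM (SD of the library medians 5.85, n = 4). Of the 41, 34 lay above the median gene and 16 above 100 FPKM (5.99% of all genes). Many of these genes are also active at normal oxygen, so their level alone does not show a hypoxic state.

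The genes of glucose use were the most abundant. Aldoa, an aldolase, was at 1357, 1297, 1612 and 1463 FPKM in WT 1, 3, 4 and 5, and the libraries kept close together. Gapdh (1285 ± 204), Eno1, enolase (1223 ± 197), and Tpi1, triose phosphate isomerase (951 ± 123), were of the same order. Gpi1 was at 549 ± 60.2, Aldoc, the aldolase of glia and neurons, at 454 ± 91.4, Pfkp, a phosphofructokinase, at 284 ± 29.7, Pgk1 at 233 ± 35.2, Pfkl at 153 ± 13.5 and Pgam1 at 94.4 ± 14.2. The glucose carrier Slc2a1 was at 215, 222, 338 and 215 FPKM, so WT 4 stood alone above the other libraries, which kept close together. Slc2a3, the neuronal glucose carrier, was at 22.2 ± 3.77 and Hk2, the inducible hexokinase, at 17.8 ± 1.94. The regulators Pfkfb3 (13.1 ± 1.88) and Pfkfb4 (4.71 ± 0.732) were below the median gene. For storage of glucose, the branching enzyme Gbe1 was at 67.9 ± 13.5 and the synthase Gys1 at 15.8 ± 2.91.

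Ldha, which makes lactate, was at 1148, 987, 1266 and 1306 FPKM in WT 1, 3, 4 and 5. The lactate exporter Slc16a3 was at 60.2, 63.1, 68.0 and 66.7, one of the narrowest ranges of the list, and Pdk1, which keeps pyruvate out of mitochondria, at 26.7 ± 3.28.

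Among the secreted factors, Vegfa (chromosome 17, 46016993 to 46032369) was at 233, 234, 246 and 171 FPKM in WT 1, 3, 4 and 5, a mean of 221 ± 33.7 (SD, n = 4) at rank 208 of 12339. WT 5 lay below the other libraries, which kept between 233 and 246. Adm, the vasodilator adrenomedullin, was at 15.3, 17.3, 33.05 and 15.1, high in WT 4 alone. Epo, erythropoietin, was at 3.46, 3.005, 6.496 and 1.65, and was also highest in WT 4 and lowest in WT 5. Mif, a cytokine, was at 812 ± 138, Stc2, stanniocalcin, at 11.3 ± 1.73, and Igfbp3, which binds growth factor, at 1.78 ± 0.446. Igfbp3 lay below 2.001 FPKM, the lowest mean over the 8 libraries, so its row rests on higher values in the knockout libraries. Of the list, Angptl4, Ero1a, Car9 and Car12 were among those with no value.

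Genes of oxygen sensing and feedback were between 8.59 and 42.5 FPKM. The prolyl hydroxylase Egln1, which marks HIF for removal, was at 38.9, 34.3, 45.4 and 44.2 FPKM, and the more strongly inducible Egln3 at 7.63, 6.55, 12.6 and 7.59, again high in WT 4. Ankrd37 was at 42.5 ± 5.57, the histone demethylase Kdm3a at 39.4 ± 11.7, Mxi1 at 38.3 ± 4.22 and the clock repressor Bhlhe40 at 28.7 ± 6.74. The mitophagy receptors Bnip3 (148 ± 17.96) and Bnip3l (92.8 ± 11.5), Ndrg1 (149 ± 29.6), and Ddit4, an inhibitor of mTORC1 (134 ± 8.91), were higher, with Higd1a at 70.1 ± 15.2 and Ak4 at 16.3 ± 2.59. The collagen-modifying enzymes P4ha1 (42.2 ± 7.67), Plod2 (24.1 ± 3.37) and P4ha2 (10.4 ± 1.18) were low to intermediate.

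Of the HIF subunits themselves, Hif1a was at 154, 134, 125 and 146 FPKM in WT 1, 3, 4 and 5, and Epas1, which encodes HIF-2α, at 47.7, 57.7, 68.8 and 48.6. Hif1a exceeded Epas1 in all 4 libraries. WT 4 had the lowest Hif1a and the highest Epas1. Their partners were lower, Arnt at 16.4 ± 3.21 and Arnt2 at 10.6 ± 1.93. Vhl, which binds hydroxylated HIF, was at 43.2 ± 6.93, Egln2 at 19.7 ± 1.125 and Hif1an, the asparagine hydroxylase, at 16.6 ± 2.21. HIF proteins are controlled mainly by their breakdown, so these RNA levels do not give their activity.

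WT 4 was the highest library in 27 of 41 HIF targets (27.6% of all genes), with a median deviation of 0.17 (log2), and WT 1, 3 and 5 deviated by -0.05, -0.11 and -0.12. The deviation of WT 4 for this list was 0.11 with each library scaled to an equal sum and 0.089 with quantile scaling, and 0.16 after centring on genes of like length. Müller genes deviated in WT 4 in the same direction (0.27), and the part of this in the HIF deviation was not tested.

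**Figure D5:**
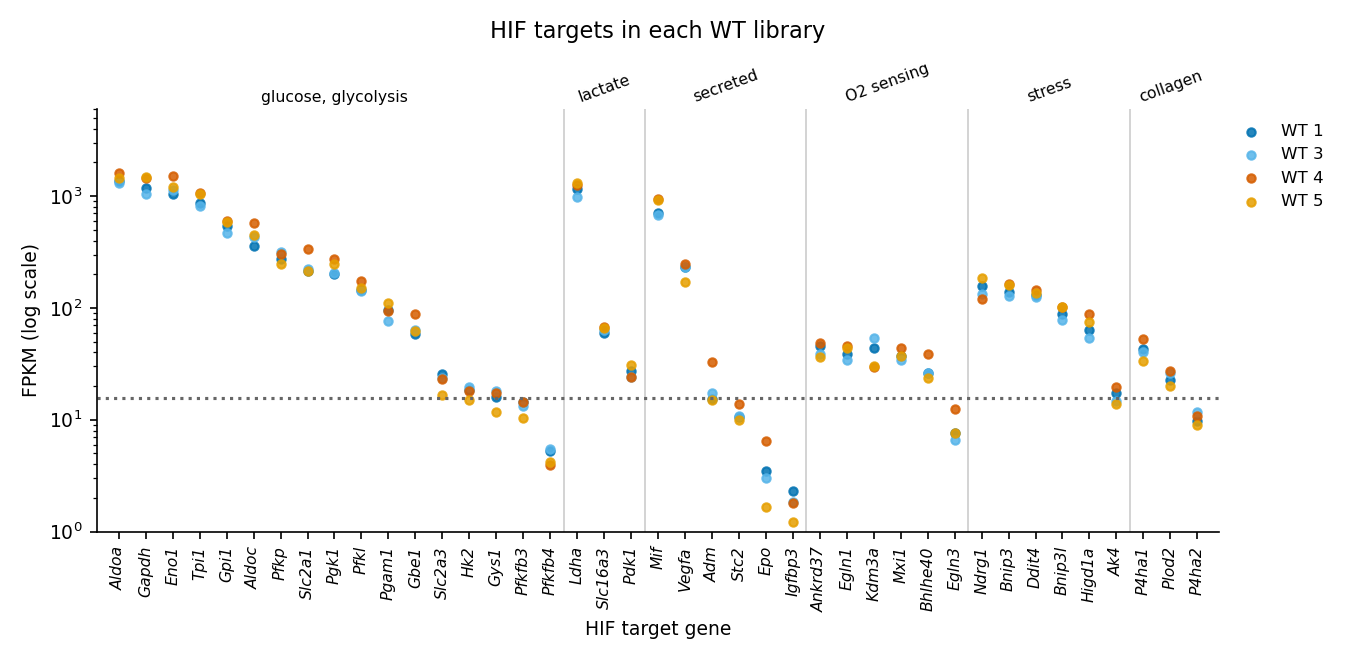
FPKM (y axis, log scale) of the 41 HIF targets with a value in each WT library (colours), ordered by role and level; the dotted line is the median of all genes, 15.5 FPKM. The libraries of most genes lie close together, and WT 4 stands above the others for Slc2a1 (338), Adm (33.05) and Gbe1 (87.9).

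HIF binds DNA at the core letters ACGTG or GCGTG. To show what the HIF targets share in sequence, promoter windows of RefSeq (build GRCm38.p6), from 250 bases before to 50 after each start site, were searched for these letters on both strands. Of the 41 genes 36 matched the table, with 52 windows, and 42 windows (80.8%) held at least 1 match. The share was 43.8% of all 32851 windows, 62.9% of the windows of genes with a value here, 64.0% of those of genes above 100 FPKM, 44.2% for the Müller list and 13.3% (2 of 15) for the rod list. Windows of the same gene can overlap. Counted by gene, 32 of the 36 HIF targets had a window with a match, against 6518 of 9387 genes with a value. The longer letters CACGTG, which other factors bind too, stood in 4 of the 52 windows (7.69%). The share was 7.15% of all windows, 9.94% of those of genes with a value and 10.4% of those of genes above 100 FPKM. A match is a description and not a binding site. The 4 windows with the most separate stretches of matching letters, overlapping matches counted once, are printed here 5′ to 3′ with the matches on either strand in capitals.
Ldha (chr7:46845554-46845853, plus strand): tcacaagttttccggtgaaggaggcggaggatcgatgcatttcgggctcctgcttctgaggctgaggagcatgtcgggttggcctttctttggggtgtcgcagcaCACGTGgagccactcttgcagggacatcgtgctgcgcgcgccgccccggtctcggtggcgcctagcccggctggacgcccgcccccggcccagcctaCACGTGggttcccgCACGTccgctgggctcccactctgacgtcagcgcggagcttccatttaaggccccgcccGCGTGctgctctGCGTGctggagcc
Bnip3 (chr7:138909457-138909756, minus strand): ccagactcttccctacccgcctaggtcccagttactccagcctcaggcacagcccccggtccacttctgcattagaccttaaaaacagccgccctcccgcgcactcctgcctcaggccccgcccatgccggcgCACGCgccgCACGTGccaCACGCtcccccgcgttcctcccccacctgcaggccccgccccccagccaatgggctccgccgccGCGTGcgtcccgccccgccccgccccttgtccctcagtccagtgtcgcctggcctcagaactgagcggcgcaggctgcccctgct
P4ha2 (chr11:54100674-54100973, plus strand): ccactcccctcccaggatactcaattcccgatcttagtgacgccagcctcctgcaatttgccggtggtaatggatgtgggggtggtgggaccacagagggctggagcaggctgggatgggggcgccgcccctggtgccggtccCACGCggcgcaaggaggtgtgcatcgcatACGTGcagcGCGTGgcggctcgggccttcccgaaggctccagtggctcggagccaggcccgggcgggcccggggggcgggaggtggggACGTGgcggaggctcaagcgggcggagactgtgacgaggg
Pfkp (chr13:6648722-6649021, minus strand): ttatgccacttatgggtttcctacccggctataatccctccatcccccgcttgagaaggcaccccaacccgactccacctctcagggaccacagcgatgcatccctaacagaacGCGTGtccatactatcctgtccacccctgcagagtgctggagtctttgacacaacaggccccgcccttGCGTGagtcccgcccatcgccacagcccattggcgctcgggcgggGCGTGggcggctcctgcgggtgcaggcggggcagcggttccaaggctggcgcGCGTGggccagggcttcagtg
They hold 5 stretches in Ldha and 4 in each of the others, and the mean levels of the 4 genes ran from 10.4 FPKM (P4ha2) to 1177 FPKM (Ldha).

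In most genes of reactive glia and of the interferon response, WT 3 and WT 4 both lay above WT 1 and WT 5. This split was defined after the values were seen. It held for 14 of 16 reactive glia genes and 14 of 15 interferon genes with a value, against 14.1% of all genes, for 16 of 43 Müller genes and for 0 of 21 rod genes. As in the Müller list, WT 4 was the highest in 14 of the 16 reactive glia genes (27.6% of all genes) and WT 1 the lowest in 12 (22.7%). The lists are not separate, since Vim and Cp, for example, are in both. Gfap, the filament protein that Müller cells make after injury, was at 56.3, 89.4, 166 and 55.3 FPKM in WT 1, 3, 4 and 5. Serpina3n, a protease inhibitor of reactive astrocytes named after its values were seen, was at 1.31, 4.65, 10.8 and 1.55, and S100a6, a calcium-binding protein, at 22.1, 34.1, 84.3 and 30.1. Cp, ceruloplasmin, was at 184 ± 49.4 and Stat3, a signal carrier of cytokines, at 28.3 ± 2.96. The split held for 12 of the 16 with quantile scaling.

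The interferon gene B2m, a subunit of MHC class I, was at 35.4, 65.5, 81.8 and 44.2 FPKM in WT 1, 3, 4 and 5 and showed the split. Oasl2 was at 9.03, 34.1, 23.7 and 13.6 FPKM, H2-K1 at 16.5, 34.2, 36.3 and 25.5, H2-D1 at 18.3 ± 6.69 and Psmb8, of the immunoproteasome, at 10.4 ± 5.21. Isg15, an inducible ubiquitin-like protein named after its values were seen, was at 1.34, 9.49, 6.98 and 0.964. In WT 3 the interferon genes were as high as in WT 4 (median deviation 0.58 and 0.60), while the reactive glia genes were not (0.16 and 0.64). The 1 microglia gene with a value showed it as well. It was also seen in 4 of 5 pericyte, 3 of 3 metallothionein, 2 of 5 endothelial and 2 of 6 astrocyte genes, and the part of other cells in it was not tested.

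Metallothioneins bind zinc and copper. Mt1 was at 129.9, 235, 409 and 197 FPKM and Mt2 at 59.7, 171, 275 and 97.0, both lowest in WT 1 and highest in WT 4. Mt3, the neural form, was at 48.4, 51.1, 97.2 and 48.6, and was high in WT 4. Immediate early genes, which respond to activity and handling within minutes, had a median of 14.2 FPKM. WT 4 was the highest library in 7 of the 10 (27.6% of all genes). Fos was at 9.46, 8.29, 26.9 and 10.3, Egr1 at 11.5, 12.4, 23.7 and 10.7, Ier2 at 16.5 ± 4.91 and Ier3 at 57.1, 57.1, 96.0 and 50.3, while Jun (48.1 ± 7.28) and Btg2 (39.98 ± 3.81) varied less.

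Nfe2l2, which encodes Nrf2 and is intact in these libraries by their label, was at 17.5, 18.8, 23.1 and 17.5 FPKM. Rpl22, whose protein carries the tag, was at 141, 136, 162 and 167. Xist, the RNA of the inactive X chromosome, was at 58.1, 72.1, 39.9 and 27.0, so it was present in each WT library. The other genes of its list, Tsix and the Y-linked Ddx3y, Eif2s3y, Kdm5d and Uty, had no value. The sex of the animals was not tested.

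Spread between the libraries was tested gene by gene against the trend of spread with level over all genes (limma, variance of log2 values with 3 degrees of freedom, upper-tail F test, Benjamini-Hochberg adjustment). None of 12339 genes (0, or 0%) passed an adjusted p of 0.05 in limma, where the lowest reached 0.161. With 4 libraries the test has little power, so this count does not show that genes varied no more than the trend. Before adjustment 567 genes (4.6%) had a p below 0.05. The trend was fitted to these same genes, so a share over all genes near the threshold largely follows from the fit. The 567 held 14 of the 15 interferon genes, 3 of 3 metallothioneins, 5 of 16 reactive glia genes, 2 of 43 Müller genes, 1 of 21 rod genes and 2 of 41 HIF targets. The median SD over the libraries was 0.20 (log2) for all genes, 0.25 for Müller genes, 0.28 for rod genes, 0.22 for HIF targets, 0.53 for reactive glia genes, 0.62 for interferon genes and 0.68 for metallothioneins.

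Chosen after their values were seen, the named genes of at least 50 FPKM that varied most included Msra, Ece1, Malat1, Trf, Meg3 and Mir124a-1hg. Meg3, an imprinted noncoding RNA, was at 206, 282, 108 and 81.3 FPKM in WT 1, 3, 4 and 5, and Mir124a-1hg, a microRNA host transcript, at 365, 497, 204 and 153, both in the order of Malat1. Trf, the iron carrier transferrin, was at 127, 201, 473 and 123. Of the 24 most variable, 13 were higher in WT 1 and WT 3 than in WT 4 and WT 5 (28.6% of all genes). The steadiest were Npdc1 (69.3 ± 0.922 FPKM), Uba1, the ubiquitin-activating enzyme (129.6 ± 2.72), Cops7a (52.1 ± 1.13) and Vcp, a protein-unfolding ATPase (105 ± 2.34; SD, n = 4 each).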

How the data were processed

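Poly(A) RNA from ribosome pull-downs was sequenced in 8 samples, of which the 4 WT samples were used. Libraries were directional (NEBNext) and RNA came from RNeasy Micro columns, per the labels' protocols. The authors deposited 1 table of FPKM, 12339 genes by 8 libraries. STAR and edgeR, and the builds GRCm38 and mm10, appear in the submitters' processing notes with neither version nor role. The counting tool, annotation, strand setting and filter are not given in the sources used here. Fragments per library are unknown, and FPKM did not show whole-read steps: 29 genes had a value under 0.01, some far below 1 read, in a WT library. No interval or floor was computed.

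Groups came from the sample titles. Levels are means ± SD over 4 libraries, without further scaling. Deviations and spread used log2(FPKM + 0.5), and spread was tested with limma 3.58.1 in R 4.3.3 and tested on simulated data. A list of 323 genes, 228 with a value, gave the cell type and pathway lists. Where a symbol had 2 gene IDs (8 symbols), the higher was used. Coordinates, gene classes and exonic lengths came from GENCODE mouse release 21 (GRCm38), which held 12327 of the IDs. The lists, rules and tests were chosen with earlier results of these data known. Named genes were the 24 symbols without a clone name among the 25 most abundant, all Müller and HIF target members with a value, up to 4 members of other cell type lists and up to 6 of other lists, Nfe2l2 and Rpl22. Some genes these rules name are not reported here. With 4 libraries of 1 group an exact two-sided sign-flip test cannot go below p = 0.125, so levels were not tested against each other. Nothing shows whether the libraries came from separate animals, so the spread may be technical. Alternatives were other pseudocounts, filters, scalings, fits, summaries, and leaving out each library.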

Additional observations from a re-analysis of the deposited data

Results flagged for a closer look

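Over 174 results with 4 library values (159 genes and 15 list medians), 13 had 1 library far from the other 3 (a gap to the nearest of them beyond Dixon's 95% limit for 4 samples). Chance flags about 1 in 20 such groups, and the results are not independent. In 10 of the 13 the library was WT 4, each time as the highest.

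In WT 4 the median of the immediate early list was 23.7 FPKM, against 10.5 to 12.1 in the other libraries. Its members Fos (26.9, against 8.29 to 10.3), Egr1 (23.7, against 10.7 to 12.4) and Ier3 (96.0, against 50.3 to 57.1) stood apart as well. So did the HIF targets Slc2a1 (338, against 215 to 222), Gbe1 (87.9, against 58.8 to 63.2) and Adm (33.05, against 15.1 to 17.3). Glul (5101, against 3317 to 3595), Mt3 (97.2, against 48.4 to 51.1) and the globin Hbb-bs (3.59, against 1.15 to 1.503) completed those of WT 4. Hbb-bs has a row only through the knockout libraries, since its WT mean lies below the lowest mean over all 8 libraries. In WT 5 Vegfa was low (171, against 233 to 246), as was the cone transducin Gnat2 (19.98, against 24.3 to 25.1). In WT 1 Nfix was low (83.7, against 94.9 to 96.4).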

How the results depend on the processing

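No paired analysis was possible because only the WT group was used and no result compares groups. Recomputed under the alternatives, 122 values of the excess spread count, the list levels and the share of the 100 most abundant genes stayed within the spread between libraries (counts within 1.5 times) and 10 did not. With the members averaged as a geometric mean (pseudocount 0.5) the level was 155 FPKM for the Müller list, 70.9 for HIF targets, 29.6 for the HIF pathway and 13.1 for reactive glia. With genes of a mean of at least 5 FPKM alone it was 16.9 for amacrine, 16.8 for ganglion, 40.1 for endothelial and 22.7 for reactive glia genes, where the low members are left out. Leaving out 1 library moved the count of genes with excess spread between 0 and 6: 3 without WT 1 (Msra, AY036118 and Gm12338), 6 without WT 3, and 0 without WT 4 or WT 5. Other settings of that fit gave 0. The Müller list ranged from 106 (without WT 4) to 124 FPKM, the rod list from 269 to 322 and HIF targets from 61.2 to 65.9. Scaling alternatives and length centring, added after the data were seen, kept the direction of the WT 1 and WT 4 deviations of the Müller, rod, bipolar and HIF lists, except that quantile scaling turned the deviation of WT 1 for HIF targets to 0.021 from -0.054, and the cause was not tested. Genes of low FPKM varied most. The median coefficient of variation was 22.2% below 5 FPKM, 14.7% between 5 and 20, 12.3% between 20 and 100, and 14.5% from 100 FPKM up. Depth is unknown, and its part in this was not tested.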

Other observations

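Some genes stood at an unusual level in a single library, and they are given as values, chosen after these were seen. Msra, a methionine sulfoxide reductase, was at 15.2, 14.4, 745 and 18.4 FPKM in WT 1, 3, 4 and 5, which makes it the 263rd gene by mean level although 3 libraries lie near the median gene. Slc10a7, a membrane carrier, was at 45.6 in WT 1 and between 3.08 and 3.76 in the others. Ndufs5, a subunit of respiratory complex I, was at 26.3, 5.45, 23.9 and 2.45. The table gives 1 value per gene and no coverage, so where in these genes the fragments lay was not analysed here.

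Long noncoding RNAs and transcripts still to be checked by experiment (TEC, 616 genes) held 1.80, 2.17, 1.58 and 1.24% of the summed FPKM in WT 1, 3, 4 and 5, and 260 of them were higher in WT 1 and WT 3 than in WT 4 and WT 5 (28.6% of all genes) and 83 lower (26.1% of all genes). Cytosolic ribosomal protein RNAs (81 genes) held 2.49, 2.15, 2.92 and 2.997%. The 9 mitochondrially encoded RNAs held 0.256, 0.267, 0.219 and 0.196%. The 1 ribosomal RNA gene held 0.545, 0.558, 0.721 and 0.478%, although poly(A) RNA was selected.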
